A study of Mus musculus with 28 samples.

Results

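Gene expression was compared between tumour and peritumour tissue in 11 pairs of mouse liver samples. The 22 libraries, of 28 in the series, are all those titled Tu_F (tumour) or Pe_F (peritumour), and a tumour was paired with the peritumour library that has the matching sample code. The 6 Tu_M and Pe_M libraries were left out. All 22 come from mice labelled c-Myc/Alb-cre transgenic, so tumour and comparison tissue share the transgenes and no liver without them enters. In Alb-cre the albumin promoter, active in hepatocytes, makes Cre recombinase. The sources used here do not give the promoter of the Myc transgene, the age of the mice or the meaning of the letter F. Each tissue sample is taken as 1 animal's, and pairs carry the replicate numbers 1 to 11 of the labels. RNA was read as poly(A)-selected mRNA from whole tissue. The series design names the contrast of tissue inside a tumour with tissue around it, and the immune-related genes of its title are taken up with the other cell types.

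Myc is a transcription factor that binds DNA together with Max, often at the sequence CACGTG, and its known targets include genes of ribosome production and the cell cycle. Hepatocytes divide their metabolic work along the liver lobule. Those near the central vein receive Wnt signals and make drug-metabolising cytochrome P450 enzymes, while those near the portal tract run the urea cycle. Liver tumours of many kinds keep only some of these functions, and they also contain macrophages, lymphocytes, endothelial cells and stellate cells in varying amounts.

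The libraries held 14777567 to 17576921 estimated counts and 15141 to 16431 genes with counts. Levels are given as CPM, the count relative to the TMM-scaled total of the library, fold changes are tumour minus peritumour on the log2 scale with a standard error, and adjusted p-values are those of edgeR's quasi-likelihood test with the pair as a block. Albumin, the defining product of hepatocytes, ran from 7904 to 47929 CPM with a median of 25460 CPM in peritumour tissue and from 9251 to 32205 CPM with a median of 16712 CPM in tumours, so both tissues carried abundant hepatocyte RNA. The 4 Y-linked genes in the table had 0 to 3 counts in each library. Genes of neutrophils and their precursors were high in some pairs, and the sums below do not separate mature cells from precursors. The summed level of the 14 neutrophil and granulocyte precursor genes was 523, 734 and 304 CPM in the peritumour tissue of pairs 2, 5 and 6, and from 32.6 to 118 CPM in that of the other pairs. In tumours it was highest in pairs 6, 4, 5 and 2. The peritumour library of pair 5 stood apart in hepatocyte genes as well, with Cyp2e1 at 97.2 CPM against 490.4 CPM in the next lowest, and Afp, the fetal counterpart of albumin, at 2156 CPM.

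Of 13084 genes tested, 558 (4.26%) were higher and 698 (5.33%) were lower in tumour at an adjusted p under 0.05, together 9.6%. Counts of list members called higher or lower are to be read against these shares throughout. The median log2 fold change of all genes tested was -0.019. Changes of 2-fold or more were called for 45 higher and 102 lower genes. The sign was the same in all 11 pairs for 149 of the higher and 257 of the lower genes. The calls rest on the pairing: with a term for the style of the sample code in place of the pair, edgeR called none, 2105 genes had an unadjusted p under 0.05, and the biological coefficient of variation was 0.372 against 0.261 with it. Leaving out pairs in turn gave 230 (without pair 8) to 668 (without pair 2) higher genes and 358 (without pair 9) to 668 (without pair 2) lower genes, and without pair 7, 8 or 9 both counts shrank by over 1.5 times. Without pairs 2, 5 and 6 the counts were 518 and 656. Of the lists described next, 14 cytochrome P450 genes, 8 conjugation enzymes and 5 bile acid genes fell, and 5 gut-type epithelial genes rose, without those pairs. With library size alone as the scale the split was 773 higher and 525 lower. Levels of tumour and peritumour samples overlapped for nearly every gene. Dpf2, a subunit of the BAF chromatin remodelling complex (gene ID 19708, chr19:5896516-5913221), was the single gene tested whose ranges did not touch (0.00764% of genes), and it was singled out here after its values were seen. It ran from 38.6 to 52.9 CPM with a median of 48.1 CPM in peritumour tissue and from 53.3 to 81.7 CPM with a median of 67.6 CPM in tumours. All 11 tumours thus lay above all 11 peritumour samples, with a log2 fold change of 0.45 ± 0.07 SE, adjusted p = 0.00283.

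**Figure D1:**
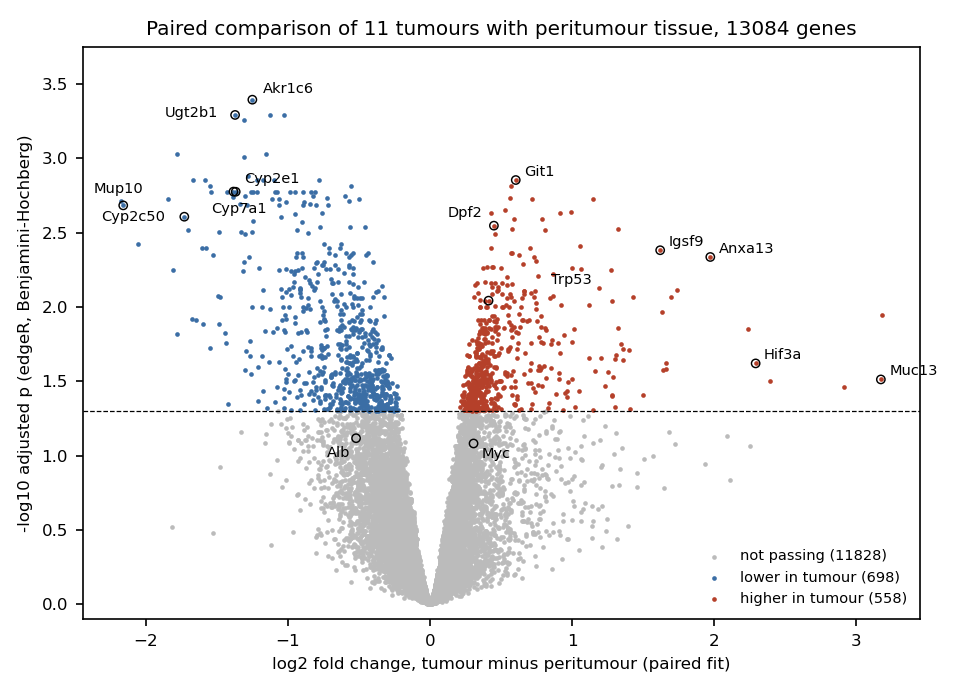
Log2 fold change of tumour minus peritumour (x axis) against -log10 of the adjusted p (y axis) for all genes tested, with the 0.05 threshold as a dashed line. The 698 falls (blue) hold the named liver enzymes such as Akr1c6 at -1.25, and labelled genes with large rises include Muc13 at 3.17 and Hif3a at 2.29. Alb and Myc lie under the threshold.

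Drug-metabolising enzymes were lower in tumours. Of the 22 listed phase I cytochrome P450 genes, 18 fell and none rose, against 5.33% of all genes that fell. Their median log2 fold change was -1.17, and the mean over the list was below 0 in all 11 pairs, from -0.30 in pair 4 to -2.10 in pair 7. In bulk tissue, fewer cells of a type and less RNA per cell cannot be told apart. Cyp2e1, which oxidises ethanol and small toxicants (gene ID 13106, chr7:140763832-140774981), ran from 97.2 to 2585 CPM with a median of 1047 CPM in peritumour tissue and from 21.7 to 1363 CPM with a median of 432 CPM in tumours. Every tumour was below its own peritumour sample, yet the ranges overlapped widely, with pair 5 lowest in both tissues. Its log2 fold change was -1.38 ± 0.19 SE, adjusted p = 0.00167. Cyp1a2, which handles caffeine and aromatic amines, fell in 11 of 11 pairs, from a median of 204 to 64.2 CPM (-1.22 ± 0.16 SE, adjusted p = 0.001397). Cyp2b9 fell from 24.7 to 6.96 CPM in the median (-1.54 ± 0.21 SE, adjusted p = 0.00167) and Cyp2c50 from 144 to 21.1 CPM (-1.73 ± 0.27 SE, adjusted p = 0.00247). Cyp2b, Cyp2c and Cyp2d enzymes have near-identical copies, so the split of reads within each family is uncertain. The 4 listed members that did not pass were Cyp2b10 at -0.85, Cyp2c70 at -0.39, Cyp2d26 at -0.33 and Por, the electron donor of all these enzymes, at -0.25 (adjusted p = 0.2801).

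Some enzymes of conjugation and related reductases fell. Akr1c6, a hydroxysteroid dehydrogenase, had the smallest adjusted p of the genes named here. It ran from 19.5 to 539 CPM with a median of 353 CPM in peritumour tissue and from 7.96 to 269 CPM with a median of 127 CPM in tumours. The tumour of every pair lay below its peritumour sample, with log2 differences of -1.92 to -0.68, and the ranges overlapped, with pairs 5 and 6 low in both tissues. The log2 fold change was -1.25 ± 0.12 SE, adjusted p = 0.000402. Ugt2b1, a glucuronidating enzyme, fell from a median of 57.3 to 17.01 CPM (-1.37 ± 0.15 SE, adjusted p = 0.0005096) and Ugt3a2 from 43.03 CPM (-1.26 ± 0.17 SE, adjusted p = 0.00167), each in 11 of 11 pairs. Among the 22 listed conjugation enzymes 8 fell and none rose, with a median of -0.42. The falling members were the glucuronidating Ugt2a3, Ugt2b1, Ugt2b5, Ugt2b34 and Ugt2b36, the sulfotransferase Sult2a8 (-1.47), the methyltransferase Nnmt (-0.70) and, of the 10 glutathione transferases, Gsta3 (-0.46). The sulfotransferases Sult2a1 (-1.84 ± 0.27 SE, adjusted p = 0.00188) and Sult2a2 (-1.58 ± 0.20 SE, adjusted p = 0.001397), which are close copies, were among the 10 largest falls.

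The remaining large falls were secreted pheromone-binding and protease inhibitor genes. Mup10 ran from 3.67 to 529 CPM with a median of 91.9 CPM in peritumour tissue and from 0.465 to 399 CPM with a median of 13.3 CPM in tumours. It was lower in tumour in all 11 pairs, and peritumour levels themselves spanned more than the tumour change (-2.16 ± 0.32 SE, adjusted p = 0.00207). Mup16 (-2.05 ± 0.34 SE, adjusted p = 0.00379), Mup3 (-1.78 ± 0.21 SE, adjusted p = 0.000936), Mup20 (-1.67 ± 0.22 SE, adjusted p = 0.001397) and Mup2 (-1.64 ± 0.35 SE, adjusted p = 0.0123) fell with it. These genes lie in a cluster of near-identical copies on chromosome 4, so single members cannot be told apart with confidence. Serpina3k, a serine protease inhibitor of plasma, fell from a median of 1340 to 359 CPM in 11 of 11 pairs (-1.70 ± 0.27 SE, adjusted p = 0.00305), and it too has close copies.

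The entry step of bile acid synthesis was lower in tumours. Cyp7a1, the rate-limiting enzyme (gene ID 13122, chr4:6262194-6275631), ran from 8.32 to 296 CPM with a median of 61.2 CPM in peritumour tissue and from 1.86 to 129.6 CPM with a median of 16.7 CPM in tumours. All 11 tumours were below their own peritumour sample and the 2 groups overlapped over most of their range. The log2 fold change was -1.37 ± 0.19 SE, adjusted p = 0.00168. Of 18 tested genes of this list 9 fell and none rose, among them Cyp8b1 (-0.96), the conjugating enzymes Baat (-0.91) and Slc27a5 (-0.72), and the hepatocyte uptake carrier Slco1b2, which went from a median of 173 to 35.7 CPM (-1.39 ± 0.20 SE, adjusted p = 0.00182). The export pumps Abcb4 (-0.49) and Abcc2 (-0.46) fell by less. Left out alone, pair 9 reduced the count to 4 and pairs 2, 5, 7 and 8 each to 5.

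**Figure D2:**
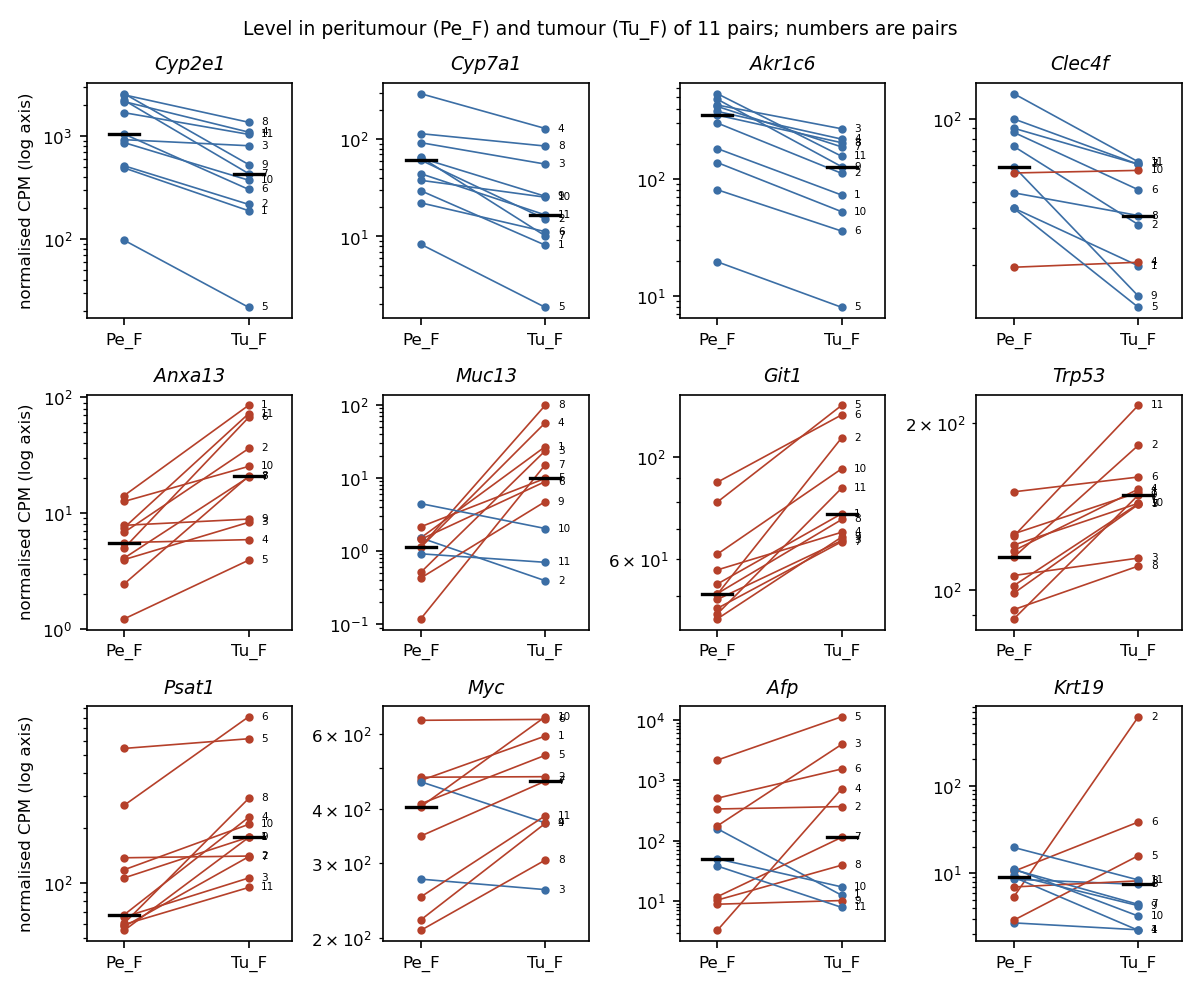
Normalised CPM on a log axis in peritumour (Pe_F) and tumour (Tu_F) tissue of 11 pairs for 12 genes. Lines join the tissues of a pair, red where tumour is higher and blue where it is lower, numbers name the pair and black bars are group medians. Cyp2e1, Cyp7a1 and Akr1c6 slope down and Anxa13, Git1, Trp53 and Psat1 slope up in all 11 pairs, while Krt19 is set apart by 1 tumour at 613 CPM.

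Marker genes of both zones of the lobule fell in part. Of 14 pericentral genes 7 fell (median -0.71), and of 15 periportal genes 3 fell (median -0.31); the difference between the 2 lists was not tested. Besides Cyp2e1 and Cyp1a2 the falling pericentral genes were Cyp2a5 (-1.48), Lect2 (-1.02), Rgn (-0.90), Gulo (-0.81) and Oat (-0.69). Glul, glutamine synthetase, which marks the last hepatocytes around the central vein, had a median of 295 CPM (181 to 384) in peritumour tissue and 234 CPM (151 to 412) in tumours and a log2 fold change of -0.22 (adjusted p = 0.281). The falling portal genes were the urea cycle enzymes Otc (-0.64 ± 0.14 SE, adjusted p = 0.0142), Cps1 (-0.62 ± 0.15 SE, adjusted p = 0.0257) and Arg1 (-0.42). With GC content and length corrected for, Otc stood at -0.40 (adjusted p = 0.0805), Cps1 at -0.52 (adjusted p = 0.0828), and none of the 15 periportal genes was called. Without pair 7 or pair 9, 1 of them was called.

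Some genes that report or carry the Wnt signal fell. Tbx3, a transcription factor switched on by beta-catenin in liver, ran from 3.96 to 21.9 CPM with a median of 12.3 CPM in peritumour tissue and from 1.86 to 12.1 CPM with a median of 5.84 CPM in tumours. It was lower in tumour in each of the 11 pairs, and the highest tumour, that of pair 8, was just under the peritumour median (-1.15 ± 0.13 SE, adjusted p = 0.000936). Notum, a secreted enzyme that inactivates Wnt, fell from a median of 14.1 to 6.35 CPM (-0.84 ± 0.16 SE, adjusted p = 0.00684), and Rnf43, which removes Wnt receptors, fell with -0.76 ± 0.15 SE, adjusted p = 0.01001. Axin2 and Lgr5, used widely as readouts of the pathway, stood at -0.77 (adjusted p = 0.0576) and -0.76 (adjusted p = 0.0691). Over the 11 tested target genes 3 fell and none rose, the median was -0.76, and the list mean was below 0 in 11 of 11 pairs; 6 of them were called without pair 2 and 5 without pair 5. Among the signals sent by central vein endothelium, Wnt2 (-0.84 ± 0.20 SE, adjusted p = 0.01901) and Rspo3 (-0.89 ± 0.26 SE, adjusted p = 0.0451) fell, both from low levels, with medians of 1.202 and 2.88 CPM in peritumour tissue. They were 2 of 8 tested genes of that list, of which none rose. The list median was -0.24, and the list mean was below 0 in 6 of 11 pairs. Rspo3 stood at -0.74 (adjusted p = 0.0756) with the GC and length correction and was not called without 8 of the 11 pairs, each left out alone.

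Some liver transcription factors fell. Of 19 tested, 4 fell and none rose, against 5.33% of all genes that fell, with a median of -0.13. Nr1i3, the xenobiotic receptor CAR, which activates Cyp2b and Ugt genes, ran from 44.2 to 77.8 CPM with a median of 57.2 CPM in peritumour tissue and from 16.4 to 56.3 CPM with a median of 27.8 CPM in tumours. It was lower in 10 of 11 pairs, and the tumours of pairs 3, 8, 10 and 11 lay within the peritumour range (-0.92 ± 0.17 SE, adjusted p = 0.00758). Prox1 fell by less (-0.41 ± 0.09 SE, adjusted p = 0.01599), and stood at -0.21 (adjusted p = 0.367) with the GC and length correction. Nr1h4, the bile acid receptor, fell with -0.41 (adjusted p = 0.0326) and Nr5a2 with -0.33 (adjusted p = 0.0464). Hnf4a (0.02, adjusted p = 0.925), Foxa2 (0.10, adjusted p = 0.592) and Ppara (-0.09, adjusted p = 0.703) did not pass, and these values do not show that they were equal.

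Sequence upstream of the genes was examined next, since many liver genes fell together. Promoters from RefSeq (GRCm38.p6), taken as the 250 bases before the first listed start of a gene, were found for 10458 of the 13084 genes tested (79.9%), and each string was searched on both strands. Of these genes 554 fell and 441 rose, so the small shares rest on few genes. These calls are from the paired fit without the GC and length correction. The shares were not compared at equal base composition. CAAAGTCCA, a match to the site of the liver factor HNF4, was found in 1.44% of promoters of genes that fell (8 genes). It was in 0.68% of those that rose (3 genes) and 0.43% of all (45 genes). CACGTG, the site of Myc with Max and of other factors, was found in 7.4% of promoters of genes that fell, 13.4% of those that rose and 8.37% of all. The strings TGACTCA (AP-1 type) with 5.78%, 3.17% and 3.26%, and TGTTTAC (forkhead type) with 3.97%, 1.59% and 2.29%, were commoner in genes that fell. GGCGGGAA (E2F type) was in 1.99%, 4.76% and 3.41%, and TGACGTCA in 1.44%, 2.95% and 2.62%. CTTTGATC (TCF type) was in 1.08%, 1.36% and 0.641%, TTGCGCAA (C/EBP type) in 0.361%, 0% and 0.249%, and CAAAGGTCA in 0.361%, 0.454% and 0.363%. Of 10 strings searched 9 are given. None of them contains another, they were chosen with earlier results of these data known, and a match describes the letters only.

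For CACGTG and CAAAGTCCA, the 3 called genes with the smallest adjusted p among those with a mean of at least 10 CPM are shown, picked once their values were known, so that the matches can be seen in place. Each window is the strand of the gene, 5′ to 3′, and capitals mark the match or its reverse complement. Pola2, a subunit of DNA polymerase alpha, rose by 0.56 (chr19:5964392-5964456, minus strand), Bex4 by 1.059 (chrX:136138957-136138995, plus strand) and Igsf9 by 1.62 (chr1:172482012-172482077, plus strand), all 3 with CACGTG.
Pola2: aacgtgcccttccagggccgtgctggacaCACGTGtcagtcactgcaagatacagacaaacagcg
Bex4: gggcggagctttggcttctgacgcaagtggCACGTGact
Igsf9: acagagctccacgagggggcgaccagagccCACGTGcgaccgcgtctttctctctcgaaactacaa
Genes that fell with the HNF4-type string were the P450 enzymes Cyp2c67 at -1.30 (chr19:39649129-39649197, minus strand), Cyp3a11 at -1.25 (chr5:145879925-145879993, minus strand) and Cyp2c68 at -0.65 (chr19:39741140-39741208, minus strand). The windows of Cyp2c67 and Cyp2c68 are nearly the same sequence, so their matches are not separate instances.
Cyp2c67: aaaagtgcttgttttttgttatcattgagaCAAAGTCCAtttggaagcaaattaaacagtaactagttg
Cyp3a11: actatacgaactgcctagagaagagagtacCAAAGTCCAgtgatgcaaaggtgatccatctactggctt
Cyp2c68: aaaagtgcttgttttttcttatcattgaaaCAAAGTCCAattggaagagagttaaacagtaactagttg

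Liver-made plasma proteins fell in part, in counts to be read against the 5.33% of all genes that fell. Of 17 acute phase genes 7 fell, with a median of -0.36. Saa2, an inflammation-induced apolipoprotein, had a median of 287 CPM (16.3 to 1482) in peritumour tissue and 104 CPM (9.99 to 950.0) in tumours and fell in 10 of 11 pairs (-0.99 ± 0.19 SE, adjusted p = 0.00758), and Apcs fell with -0.89 ± 0.15 SE, adjusted p = 0.004604. Of 22 complement genes 5 fell, led by Mbl1, a mannose-binding lectin (-0.80 ± 0.14 SE, adjusted p = 0.00499), and C8a, a part of the membrane attack complex (-0.75 ± 0.16 SE, adjusted p = 0.0113). Of 20 coagulation genes 3 fell, namely F5 (-0.71 ± 0.11 SE, adjusted p = 0.00207), F9 (-0.80 ± 0.14 SE, adjusted p = 0.00504) and F13b (-0.46). The fibrinogen chains stood at -0.13, -0.20 and -0.23 and prothrombin, F2, at -0.14, none of which passed. Of 18 lipoprotein genes 5 fell, including Lipc, hepatic lipase (-0.54 ± 0.12 SE, adjusted p = 0.0137). The F9 gene lies on chromosome X, whose median was lowered as measured and less so with the GC and length correction, as described further on.

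Metabolic and endocrine lists held further falls, to be read against 5.33% of all genes that fell. Among 22 enzymes of amino acid breakdown 5 fell, with Tat, which starts tyrosine breakdown (-0.83 ± 0.16 SE, adjusted p = 0.007198), and Hpd, its next step (-0.78 ± 0.16 SE, adjusted p = 0.0126), lower in all 11 pairs. Among 18 genes of fatty acid oxidation 5 fell, among them Cyp4a10 (-1.34 ± 0.20 SE, adjusted p = 0.00202) and the coactivator Ppargc1a (-0.74 ± 0.17 SE, adjusted p = 0.0189), the latter at -0.50 (adjusted p = 0.0827) with the GC and length correction. Of 20 genes of glycolysis and gluconeogenesis 2 fell, with a list median of 0.03, among them Fbp1, the liver form of fructose bisphosphatase (-0.74 ± 0.17 SE, adjusted p = 0.0189). Hk2 stood at 0.51 (adjusted p = 0.176) and Pkm at 0.46 (adjusted p = 0.292). Of 20 genes of lipid synthesis 1 rose and 4 fell. Srebf2, the master regulator of cholesterol synthesis, rose in 11 of 11 pairs (0.48 ± 0.09 SE, adjusted p = 0.00766), while Thrsp (-1.02 ± 0.22 SE, adjusted p = 0.0147), Hmgcs1 (-0.42 ± 0.11 SE, adjusted p = 0.0313), Idi1 (-0.49) and Elovl6 (-0.56) fell. Hmgcs1 stood at -0.24 (adjusted p = 0.3103) with the correction and lost its call in 6 of the 11 fits that leave out 1 pair. Prlr, the prolactin receptor, fell from a median of 57.00 to 20.6 CPM (-1.22 ± 0.17 SE, adjusted p = 0.00167) and Igf1, the liver-made growth factor, from 108 to 69.2 CPM (-0.74 ± 0.12 SE, adjusted p = 0.00377), the latter at -0.36 (adjusted p = 0.177) with the correction. Hamp and Hamp2, the close copies that encode hepcidin, the hormone that limits iron uptake, fell with -0.95 ± 0.20 SE, adjusted p = 0.0127 and -0.95 ± 0.18 SE, adjusted p = 0.00674. Of 18 clock genes Clock (-0.62 ± 0.13 SE, adjusted p = 0.0105) and Rora (-0.56 ± 0.12 SE, adjusted p = 0.0141) fell, Clock at -0.32 (adjusted p = 0.0209) and Rora at -0.24 (adjusted p = 0.251) with the correction. Of 18 glutathione genes 4 fell, with a list median of -0.05. Gclc, the rate-limiting enzyme of glutathione synthesis (-0.54 ± 0.12 SE, adjusted p = 0.0141), Gpx2 (-1.25 ± 0.32 SE, adjusted p = 0.0282), Srxn1 (-0.59) and Gpx1 (-0.50) fell, and none of these 4 was called without pairs 2, 5 and 6.

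**Figure D3:**
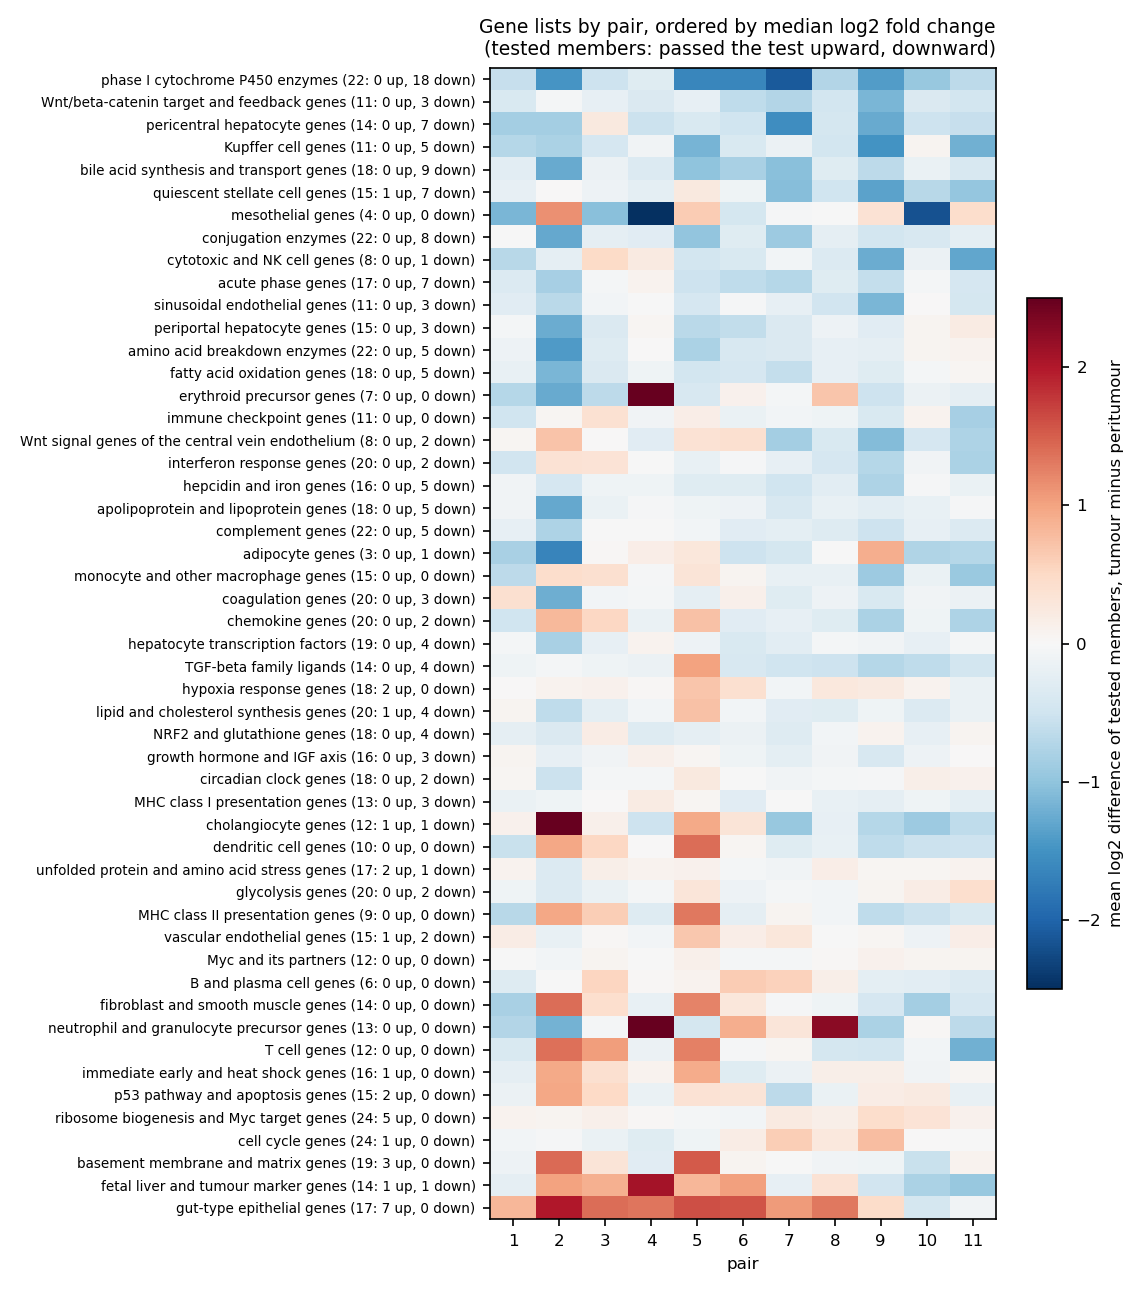
Mean log2 difference, tumour minus peritumour, over the tested members of each gene list with at least 3 tested members (rows, ordered by median log2 fold change) in each of 11 pairs (columns), with the numbers of members tested, called higher and called lower in the row names. Values beyond the colour scale are drawn in its end colour. The P450 row is blue in all 11 pairs, and T cell, dendritic cell, MHC class II and chemokine rows are reddest in pairs 2, 3 and 5.

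Genes of gut-type epithelium were the list with the most rises. Of 17 tested, 7 rose and none fell, against 4.26% of all genes, with a median of 1.00. The list was in part drawn up from these libraries and is no independent evidence of its direction. Muc13, a membrane mucin of the intestine (gene ID 17063, chr16:33794037-33819929), ran from 0.119 to 4.46 CPM with a median of 1.15 CPM in peritumour tissue and from 0.394 to 98.7 CPM with a median of 9.87 CPM in tumours. Tumours of pairs 8 and 4 were highest at 98.7 and 56.9 CPM, those of pairs 2, 10 and 11 lay below their own peritumour samples, and the call (3.17 ± 0.83 SE, adjusted p = 0.0307) was lost when any 1 of 7 pairs was left out. Anxa13, a membrane-binding protein of gut and kidney epithelium (gene ID 69787, chr15:58341464-58389303), ran from 1.22 to 14.2 CPM with a median of 5.57 CPM in peritumour tissue and from 3.93 to 85.5 CPM with a median of 20.9 CPM in tumours. It was higher in tumour in 11 of 11 pairs, by 0.08 in pair 4 to 3.72 in the pair with the largest rise, and was called whichever pair was left out (1.97 ± 0.34 SE, adjusted p = 0.004604). Misp, an actin-bundling protein of the apical cell border, rose from a median of 7.79 to 21.2 CPM (1.28 ± 0.25 SE, adjusted p = 0.00914). Cdhr2, a microvillus cadherin, rose with 3.18 ± 0.66 SE, adjusted p = 0.0113, Elf3, an epithelial transcription factor, with 0.63 (adjusted p = 0.0111), Inava with 1.25 (adjusted p = 0.0273) and Krt20 with 1.00 (adjusted p = 0.0306). The list mean was above 0 in 9 of 11 pairs, from 0.45 in pair 9 to 2.01 in pair 2, and stood at -0.44 and -0.09 in pairs 10 and 11.

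Other large rises came from scattered functions. Naaladl1, an intestinal peptidase, ran from 0 to 3.37 CPM with a median of 0.534 CPM in peritumour tissue and from 0.444 to 143 CPM with a median of 1.797 CPM in tumours (2.92 ± 0.79 SE, adjusted p = 0.0345). A few tumours were far above the rest, and 5 single pairs each ended the call when left out. Hif3a, a hypoxia-inducible factor subunit, ran from 0.6404 to 84.7 CPM with a median of 1.77 CPM in peritumour tissue and from 0.141 to 122 CPM with a median of 11.3 CPM in tumours; it was higher in 9 of 11 pairs and fell short of the call without any 1 of 4 pairs (2.29 ± 0.56 SE, adjusted p = 0.02395). Igsf9 (1.62 ± 0.27 SE, adjusted p = 0.00415), Fam107a (1.63 ± 0.34 SE, adjusted p = 0.0108), Syne4 (1.43 ± 0.28 SE, adjusted p = 0.008497) and Exoc3l4 (1.404 ± 0.33 SE, adjusted p = 0.0195) rose and were called without each pair in turn. Psrc1, a spindle protein, rose with 1.41 ± 0.42 SE, adjusted p = 0.0486 but stood at 1.37 (adjusted p = 0.0729) with the GC and length correction. Igdcc4, a cell surface immunoglobulin protein, ran from 8.26 to 83.8 CPM with a median of 23.2 CPM in peritumour tissue and from 21.6 to 156 CPM with a median of 58.1 CPM in tumours. It was higher in each pair, least in pair 11 by 0.49 and most in pair 4 by 2.80 (1.32 ± 0.21 SE, adjusted p = 0.00299).

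Rises of moderate size in all 11 pairs included that of Git1, a signalling scaffold at focal adhesions. It ran from 44.6 to 88.3 CPM with a median of 50.6 CPM in peritumour tissue and from 65.6 to 129.8 CPM with a median of 75.5 CPM in tumours. Every tumour exceeded its peritumour sample by 0.27 to 1.13, and the overlap of the ranges came from the peritumour samples of pairs 5 and 6 at 79.9 and 88.3 CPM (0.60 ± 0.08 SE, adjusted p = 0.001397). Pprc1, a coactivator of mitochondrial gene expression (0.57 ± 0.08 SE, adjusted p = 0.00153), Prr5, a part of the mTORC2 kinase complex (0.63 ± 0.11 SE, adjusted p = 0.00449), and Bin1, a membrane-bending protein known as a partner of Myc (0.66 ± 0.12 SE, adjusted p = 0.00515), rose in 11 of 11 pairs as well. In serine synthesis Psat1 rose from a median of 67.3 to 178 CPM (1.07 ± 0.19 SE, adjusted p = 0.00556), and Phgdh, from 125 to 213 CPM (0.79 ± 0.18 SE, adjusted p = 0.0174), both in 11 of 11 pairs. Of the 17 genes of that stress list these 2 rose, and Vldlr fell (-1.03 ± 0.28 SE, adjusted p = 0.0356). The call of Vldlr was lost in 9 of the 11 fits that leave out 1 pair, with library size alone as the scale and with the GC and length correction, at -0.81 (adjusted p = 0.0684).

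Myc itself (gene ID 17869, chr15:61985341-61990472) was abundant in both tissues. It ran from 209 to 646 CPM with a median of 406 CPM in peritumour tissue and from 259.9 to 658 CPM with a median of 466 CPM in tumours. The tumour was above its peritumour sample in 9 of 11 pairs, by at most 0.75 on the log2 scale in pair 9, and in pair 4 the difference was -0.32. With a log2 fold change of 0.31 ± 0.11 SE, adjusted p = 0.0828 it did not pass. The sources used here do not say whether reads of the transgene count toward this gene. None of the 12 tested genes of Myc and its partners was called, and their median was 0.07. Of 24 genes of ribosome biogenesis 5 rose and none fell, with a median of 0.19: Mybbp1a (0.35 ± 0.08 SE, adjusted p = 0.0148), Gar1 (0.36 ± 0.09 SE, adjusted p = 0.0247), Nop2 (0.32), Rrp9 (0.34) and Nop56 (0.33). With the GC and length correction 1 of the 24 was called. None was called without pair 7, 1 without pair 8 or 9, 2 without pair 3, 10 or 11, and 3 without pair 1 or 5. Ncl and Npm1, abundant nucleolar proteins, stood at -0.27 (adjusted p = 0.185) and -0.12 (adjusted p = 0.684).

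The median over 24 cell cycle genes was 0.20, and 7 of them had a negative log2 fold change. The list mean was below 0 in 6 of 11 pairs. Of the 24 genes 1 rose, a share close to the 4.26% of all genes that rose. It was Mcm2, a subunit of the replicative helicase, which went from a median of 70.3 to 102 CPM (0.40 ± 0.08 SE, adjusted p = 0.00992). Mki67, the usual marker of cycling cells, ran from 15.6 to 226 CPM with a median of 57.99 CPM in peritumour tissue and from 8.09 to 200.4 CPM with a median of 42.9 CPM in tumours. It was lower in tumour in 8 of 11 pairs (-0.55 ± 0.27 SE, adjusted p = 0.201) and did not pass. Peritumour samples of pairs 1 to 5 had 142 to 227 CPM and those of pairs 6 to 11 had 15.6 to 57.99 CPM, so the level in the comparison tissue varied more than the tumour change. Trp53, the tumour suppressor (gene ID 22059, chr11:69580359-69591873), ran from 88.7 to 150.4 CPM with a median of 115 CPM in peritumour tissue and from 110.5 to 216 CPM with a median of 148 CPM in tumours and rose in 11 of 11 pairs (0.41 ± 0.08 SE, adjusted p = 0.00906). Bid, a pro-apoptotic Bcl2 family protein, rose with 0.55 ± 0.10 SE, adjusted p = 0.00627. The p53 targets Cdkn1a and Mdm2 stood at 0.27 (adjusted p = 0.222) and -0.15 (adjusted p = 0.361).

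Fetal and progenitor markers varied widely between tumours. Afp ran from 3.25 to 2156 CPM with a median of 49.9 CPM in peritumour tissue and from 7.81 to 11296 CPM with a median of 114 CPM in tumours. It was at or above 726 CPM in the tumours of pairs 3, 4, 5 and 6 and at or under 366 CPM in the others, and the difference did not pass (1.21 ± 0.91 SE, adjusted p = 0.412). Gpc3, a surface glypican used as a liver cancer marker, stood at -0.10 (adjusted p = 0.896) and Dlk1, an imprinted fetal gene, at 2.11 (adjusted p = 0.145). Golm1, a Golgi protein raised in many liver cancers, rose in 11 of 11 pairs from a median of 35.7 to 58.9 CPM (0.54 ± 0.11 SE, adjusted p = 0.008698), while Ly6d fell in 11 of 11 (-0.96 ± 0.18 SE, adjusted p = 0.00735). Krt19, a keratin of bile duct cells, ran from 2.71 to 19.7 CPM with a median of 9.01 CPM in peritumour tissue and from 2.22 to 613 CPM with a median of 7.45 CPM in tumours. The tumour of pair 2 alone set the upper end, at 613 CPM, followed by pair 6 at 38.5 CPM, and the paired difference was 0.05 ± 0.66 SE, adjusted p = 0.974, which turned to -0.37 without pair 2. Of 12 tested cholangiocyte genes 1 rose and 1 fell, the latter Slc5a1 (-0.72 ± 0.21 SE, adjusted p = 0.0484), and neither passed with the GC and length correction. The mean over the list was 2.48 in pair 2 and 0.95 in pair 5, and at or under 0.32 in the others.

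Some genes of resident macrophages fell. Of 11 tested Kupffer cell genes 5 fell and none rose. Vsig4, a complement receptor, ran from 11.6 to 61.03 CPM with a median of 24.5 CPM in peritumour tissue and from 4.76 to 38.01 CPM with a median of 15.7 CPM in tumours and was lower in tumour in 11 of 11 pairs (-0.98 ± 0.19 SE, adjusted p = 0.00831). Clec4f, a lectin found on Kupffer cells alone in mouse liver, ran from 19.5 to 132 CPM with a median of 58.9 CPM in peritumour tissue and from 12.5 to 62.1 CPM with a median of 34.4 CPM in tumours; it was lower in 9 of 11 pairs and slightly higher in pairs 4 and 10 (-0.84 ± 0.17 SE, adjusted p = 0.0103). Timd4 (-1.13, adjusted p = 0.0233), Marco (-0.82, adjusted p = 0.0422) and C6 (-0.89, adjusted p = 0.0198) fell too, the last of which hepatocytes also make. Summed over the list the level ran from 417 to 1071 CPM in peritumour tissue and from 376 to 994 CPM in tumours. Without pairs 2, 5 and 6, 1 of the 11 was called, and without pair 9, 3. None of 15 genes of monocytes and other macrophages passed, and their summed level ran from 4790.0 to 14282 CPM in peritumour tissue and from 5280.1 to 13600.1 CPM in tumours. Csf1r, the macrophage growth factor receptor, stood at -0.27 (adjusted p = 0.174) and Cd68 at 0.06 (adjusted p = 0.793).

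Genes of T cells and B cells gave no common direction. None of 12 tested T cell genes, 6 B cell genes, 10 dendritic cell genes, 13 granulocyte genes, 9 MHC class II genes or 11 checkpoint genes passed. Cd8a, the coreceptor of cytotoxic T cells, ran from 1.71 to 5.15 CPM with a median of 3.29 CPM in peritumour tissue and from 1.504 to 6.09 CPM with a median of 2.42 CPM in tumours (-0.05 ± 0.23 SE, adjusted p = 0.901), and Foxp3, the factor of regulatory T cells, was too low to be tested. Cd274, which encodes PD-L1, ran from 6.18 to 44.1 CPM with a median of 7.99 CPM in peritumour tissue and from 4.65 to 20.4 CPM with a median of 7.98 CPM in tumours and stood at -0.28 (adjusted p = 0.286). The averages hid opposite pairs: the T cell list mean was 1.38, 1.05 and 1.27 in pairs 2, 3 and 5, -1.19 in pair 11, and between -0.45 and 0.05 in the rest. The MHC class II list, with 0.96, 0.62 and 1.32, and the dendritic cell list, with 0.97, 0.52 and 1.39, were also highest in pairs 2, 3 and 5. The summed T cell level was 59.8, 42.8 and 40.3 CPM in the tumours of pairs 3, 5 and 2 and 11.1 to 27.5 CPM in the other 8. These pairs are named after their values were seen, and no difference between them and the rest was tested.

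A few immune signalling genes were slightly lower, in counts to be read against the 5.33% of all genes that fell. Gzmb, a killing enzyme of cytotoxic cells, had medians of 4.88 and 4.102 CPM (-0.60 ± 0.18 SE, adjusted p = 0.0493), and was the single member of 8 tested cytotoxic genes that passed. Of these 8 genes, 7 had a negative log2 fold change, with a median of -0.41. The mean over the cytotoxic list was below 0 in 9 of 11 pairs. Cxcl12, a chemokine of stromal and endothelial cells, fell from a median of 253 to 208 CPM (-0.45 ± 0.11 SE, adjusted p = 0.0228) and Cxcl9, an interferon-induced attractant of T cells, fell in 9 of 11 pairs although its median was higher in tumour (-0.68 ± 0.18 SE, adjusted p = 0.0342). In antigen presentation B2m (-0.32 ± 0.10 SE, adjusted p = 0.0492), Erap1 (-0.35 ± 0.10 SE, adjusted p = 0.04495) and Nlrc5 (-0.38) fell, 3 of 13 genes. In the interferon response 2 of 20 genes fell, among them Ddx58 (-0.24 ± 0.07 SE, adjusted p = 0.0437). With the GC and length correction B2m stood at -0.12 (adjusted p = 0.554), Erap1 at -0.10 (adjusted p = 0.457), Ddx58 at -0.16 (adjusted p = 0.187), Cxcl9 at -0.50 (adjusted p = 0.0776), Gzmb at -0.51 (adjusted p = 0.0737) and Cxcl12 at -0.46 (adjusted p = 0.0361). Of the 13 antigen presentation genes 2 were called with it. With library size alone as the scale none of the 13 antigen presentation genes and none of the 20 interferon genes was called. No antigen presentation gene was called without pair 5, 7, 8, 9, 10 or 11, and no interferon gene without pair 7, 8, 9 or 11.

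Genes of vitamin A-storing stellate cells and of liver endothelium fell as well. Of 15 tested genes of quiescent stellate cells 7 fell and 1 rose, with a median of -0.49. Lrat, which makes the retinyl esters these cells store, ran from 6.52 to 25.1 CPM with a median of 16.5 CPM in peritumour tissue and from 4.22 to 13.3 CPM with a median of 6.15 CPM in tumours. It was lower in tumour in 11 of 11 pairs (-0.95 ± 0.17 SE, adjusted p = 0.00573), and the highest tumours were under the peritumour median. Gdf2, the ligand BMP9, fell with -0.77 ± 0.15 SE, adjusted p = 0.00914, Hgf with -0.91 (adjusted p = 0.0394), Reln with -0.54 (adjusted p = 0.0152), Dcn with -0.96 (adjusted p = 0.0214), Ecm1 with -0.64 (adjusted p = 0.0144) and Colec10 with -0.95 (adjusted p = 0.0308). Gdf10, a further TGF-beta family ligand, fell with -1.03 ± 0.21 SE, adjusted p = 0.00995. Summed over the list the level ran from 316 to 757 CPM in peritumour tissue and from 273 to 537 CPM in tumours. Of 11 sinusoidal endothelial genes 3 fell, led by Clec4g, a lectin of these cells (-0.77 ± 0.18 SE, adjusted p = 0.0212). In the general endothelial list Tek (-0.58 ± 0.14 SE, adjusted p = 0.0219) and Ptprb (-0.46 ± 0.12 SE, adjusted p = 0.0333) fell, and Apln, a ligand made by sprouting vessel tips, rose from a median of 1.38 to 3.72 CPM (1.497 ± 0.42 SE, adjusted p = 0.0391). Ptprb stood at -0.31 (adjusted p = 0.0648) with the GC and length correction, and lost its call also with library size alone and in 3 of the 11 fits that leave out 1 pair, Apln in 8 of them and Tek in 1. Pecam1 and Cdh5, present in all endothelium, stood at 0.08 (adjusted p = 0.637) and 0.12 (adjusted p = 0.471).

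Some matrix genes of the basement membrane rose, a count to be read against the 4.26% of all genes that rose. Of 19 tested 3 rose and none fell: Lama5, a laminin chain (0.92 ± 0.22 SE, adjusted p = 0.0204), Hspg2, which encodes perlecan (0.67 ± 0.17 SE, adjusted p = 0.0283), and Col4a2 (0.53 ± 0.14 SE, adjusted p = 0.0343). Hspg2 ran from 70.3 to 127 CPM with a median of 82.7 CPM in peritumour tissue and from 82.6 to 389 CPM with a median of 117 CPM in tumours and was higher in 11 of 11 pairs. The list mean was 1.41 in pair 2 and 1.54 in pair 5 and between -0.56 and 0.33 in the other 9. None of 14 fibroblast and smooth muscle genes passed; Col1a1 stood at 0.21 (adjusted p = 0.665) and Acta2 at 0.48 (adjusted p = 0.124). None of the 19 was called higher without pair 9 and 1 without pair 8. Without pairs 2, 5 and 6, 2 matrix genes were called higher and 4 lower.

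The changes were unevenly placed in the genome. Of the 558 genes that rose, 266 (47.7%) lay on chromosomes 15, 16, 17 and 19, which hold 2085 of 13062 tested genes on assigned chromosomes (16%). These chromosomes were singled out after their values were seen. On chromosome 15, 79 of 523 tested genes rose (15.1%) and 17 fell. On chromosome 16, 61 of 415 rose (14.7%) and 8 fell, on chromosome 17 67 of 663 (10.1%) and 10, and on chromosome 19 59 of 484 (12.2%) and 22. Falls were commonest on chromosome 4, with 97 of 824 (11.8%), which holds the Mup cluster, and on chromosome X, with 44 of 386 (11.4%).

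The shift was concentrated in particular pairs. For each pair the median log2 difference of a chromosome's genes was taken relative to the median of all autosomal genes. Chromosome 15 stood at 0.46 in pair 6, 0.42 in pair 11, 0.35 in pair 9, 0.34 in pair 10, 0.24 in pair 1 and 0.17 in pair 8, and between -0.02 and 0.11 in the other 5 pairs. Chromosome 16 stood at 0.41, 0.34, 0.24, 0.23, 0.22 and 0.20 in pairs 1, 6, 11, 10, 9 and 8, and between -0.04 and 0.05 in the other 5. The same 6 pairs thus carried both shifts. In pair 10, 79.3% of the genes of chromosome 15 lay above the autosomal median of that pair, and in pair 6 79.5% of those of chromosome 16. The mean over pairs was 0.19 ± 0.18 (SD, n = 11) for chromosome 15 and 0.15 ± 0.16 (SD, n = 11) for chromosome 16, SDs close to the size of the means.

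**Figure D4:**
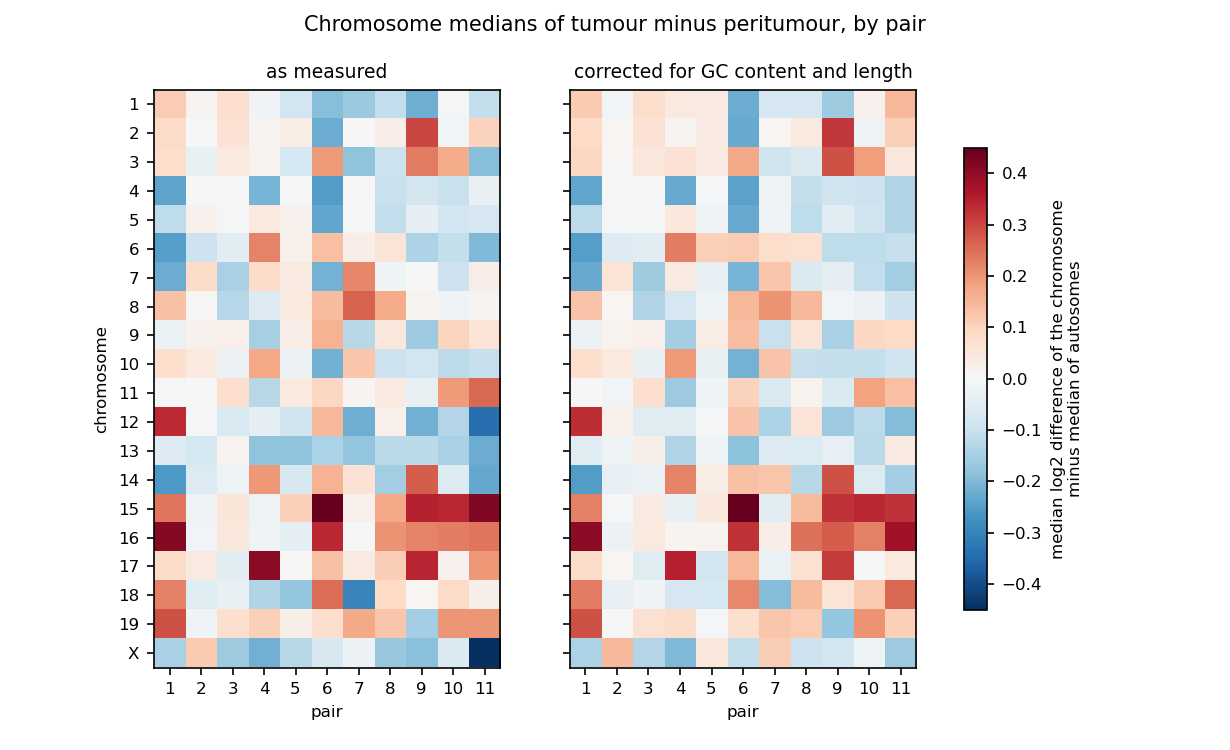
Median log2 difference of each chromosome's genes (rows), tumour minus peritumour, relative to the autosomal median of the same pair (columns), as measured on the left and corrected for GC content and length on the right. Values beyond the colour scale are drawn in its end colour. Chromosomes 15 and 16 are red in pairs 1, 6, 8, 9, 10 and 11 in both panels, chromosome 17 in pairs 4 and 9, chromosome 12 in pair 1, and the autosomes of pairs 2, 3 and 5 are the palest.

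Base composition moved with the differences in some pairs and was measured beside them. The correlation across genes of a pair's log2 differences with GC content was 0.608 in pair 11, 0.393 in pair 5, 0.316 in pair 7 and between -0.0383 and 0.261 in the others. After each library was corrected for GC content and length, chromosome 15 stood at 0.16 ± 0.18 (SD, n = 11) and chromosome 16 at 0.18 ± 0.16 (SD, n = 11), with 58 and 57 genes called higher. Chromosome X went from -0.14 to -0.06, chromosome 13 from -0.13 to -0.06, and chromosome 4 from -0.09 to -0.10. Genes called lower went from 44 to 18 on chromosome X, from 42 to 18 on chromosome 13 and from 97 to 74 on chromosome 4. With chromosome 15 cut by gene order into 4 equal segments, corrected medians ran 0.38 to 0.53 in pair 6, 0.24 to 0.38 in pair 10, 0.17 to 0.43 in pair 9, 0.25 to 0.43 in pair 11, 0.20 to 0.30 in pair 1 and 0.09 to 0.19 in pair 8. Those of chromosome 16 ran 0.36 to 0.47 in pair 1, 0.30 to 0.36 in pair 6, 0.24 to 0.50 in pair 11, 0.16 to 0.31 in pair 8, 0.13 to 0.34 in pair 9 and 0.13 to 0.28 in pair 10. As measured, without the correction, segments were less alike in some pairs. Pair 11 ran -0.20 to 0.68 on chromosome 15 and -0.12 to 0.56 on chromosome 16, and pair 9 ran 0.06 to 0.46 and 0.04 to 0.38. In pair 8 the first segment of chromosome 15 stood at -0.002 as measured. Pair 4 had a corrected median of 0.35 on chromosome 17, 0.22 on 14 and -0.23 on 4, and pair 1 had 0.33 on 12, -0.25 on 6 and -0.25 on 14. With each pair's own chromosome medians taken out as an offset, 23 genes of chromosome 15 were called higher and 28 lower, and 481 and 642 over the genome. DNA copy number was not measured here and its part in these shifts was not tested.

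Drosha, Ly6c1, Kctd17, Zc3h3 and Prr5 were picked as called rises of chromosome 15 with small p-values. Their changes are therefore larger than the shift of the chromosome as a whole. Its median relative to the autosomes averaged 0.19 over pairs, and 79 of its 523 tested genes rose. Drosha, the nuclease that starts microRNA processing, ran from 37.2 to 83.8 CPM with a median of 50.4 CPM in peritumour tissue and from 50.7 to 141 CPM with a median of 69.5 CPM in tumours. It was higher in tumour in 11 of 11 pairs (0.59 ± 0.09 SE, adjusted p = 0.00256). Ly6c1 (0.99 ± 0.15 SE, adjusted p = 0.002301), Kctd17 (0.79 ± 0.12 SE, adjusted p = 0.00256) and Zc3h3 (0.58 ± 0.10 SE, adjusted p = 0.00434) rose on the same chromosome, as did Prr5, Srebf2 and Anxa13 above. Myc also lies on chromosome 15, and its 3 largest pair differences, 0.75, 0.70 and 0.63, came in pairs 9, 10 and 11, where the chromosome stood at 0.35, 0.34 and 0.42. In pair 6, with the highest chromosome median, Myc differed by 0.01.

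Autosome medians spread least in the pairs with the highest T cell means. Their SD over the 19 autosomes, corrected for GC content and length, was 0.0285 in pair 2, 0.0456 in pair 5 and 0.0675 in pair 3, and 0.107 to 0.214 in the other 8 pairs. The T cell list means of pairs 2, 5 and 3 were 1.38, 1.27 and 1.05 and those of the other 8 were at or under 0.05. This is a description of 11 pairs, made after the values were seen, and was not tested.

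Tumours differed among themselves more than the tissue around them did. Of 9258 genes with a mean of at least 10 CPM, 83.3% had the larger SD of log2 CPM over the 11 tumours, with a median SD of 0.408 against 0.296 over peritumour tissue. The 5 genes with the largest excess were Cldn6, a tight junction protein of fetal epithelia, Gabrp, Tspan8, Krt19 and Dlk1. Cldn6 ran from 0.462 to 5.76 CPM with a median of 2.68 CPM in peritumour tissue and from 0.273 to 136 CPM with a median of 1.38 CPM in tumours, and its upper values were the tumours of pairs 2 and 5 at 136 and 98.97 CPM. Gabrp and Tspan8 reached 216 and 277 CPM in the tumour of pair 2 and at most 11.4 and 16.9 CPM in any other. Dlk1 was highest in the tumours of pairs 5, 6 and 3 at 283, 123 and 94.1 CPM. None of the 5 passed the paired test.

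**Figure D5:**
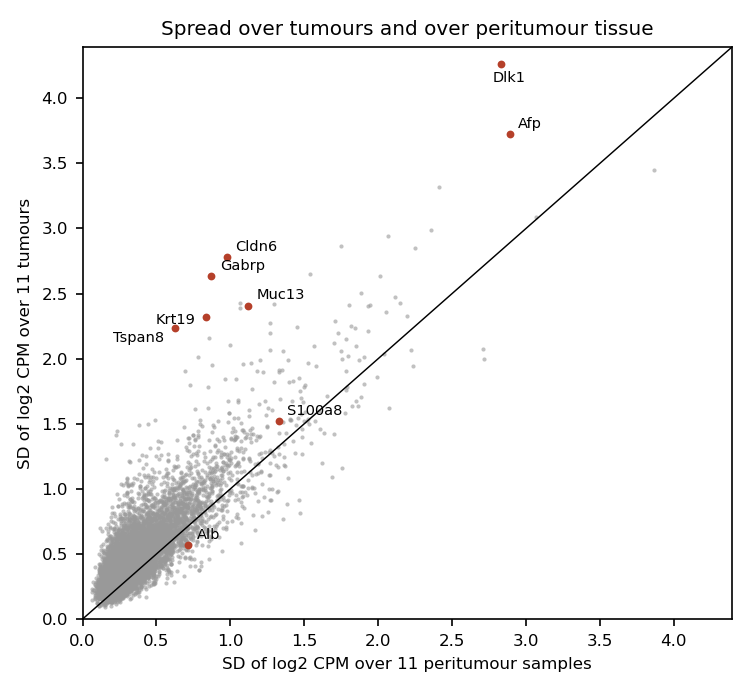
SD of log2 CPM over 11 tumours (y axis) against that over 11 peritumour samples (x axis) for 9258 genes, with the line of equality. Most points, 83.3%, lie above the line, and Cldn6, Gabrp, Krt19, Tspan8 and Dlk1 lie farthest above it.

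The pairs shared a modest part of their change. The correlation across genes of the tumour minus peritumour differences had a median of 0.267 over the 55 combinations of 2 pairs, from -0.0845 to 0.549. These values are over genes with a mean of at least 10 CPM, and over those with at least 1 CPM the median was 0.157. Genes are not independent replicates, and these values describe likeness only. Genes that differed by 2-fold or more numbered 502 higher and 985 lower in pair 2, 378 and 491 in pair 5, and 107 and 17 in pair 8. The tumour of pair 2, with Krt19, Gabrp and Tspan8 high, was also the 1 of 11 tumours that did not resemble its own peritumour sample most. The pair had the lowest list means for coagulation, at -1.22, and for amino acid breakdown, at -1.41, where the other pairs lay between -0.39 and 0.40 and between -0.78 and 0.09. For the cytochrome P450 genes pair 7 was lowest, at -2.10, and pair 2 stood at -1.47. No gene differed in its tumour change between the 3 pairs of the first style of sample code and the 8 of the other, by edgeR's test of the difference, with 971 genes at an unadjusted p under 0.05 and 1 gene called by DESeq2. The sources used here do not say whether the style of the code marks a batch.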

How the data were processed

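Poly(A)-selected RNA of 22 tissue samples was sequenced, with random-hexamer cDNA and single-strand circle libraries per the labels' protocols. The deposited table gives estimated counts for 18182 genes, made by the authors. The submitters' processing notes name HISAT2 2.0.4, Bowtie2 2.2.5, RSEM 1.2.12, DESeq2 1.4.5 and GRCm38, without their roles. The sources used here do not say whether strand was used in counting. Of the values 8.07% were not whole, and all were rounded. The 26 symbols that a spreadsheet had turned into dates were handled by gene ID, and 1 line that has no gene ID was dropped. Gene coordinates and promoters are from RefSeq.

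Genes were filtered with filterByExpr and tested with edgeR 4.0.16 under R 4.3.3 (TMM scaling with factors from 0.836 to 1.31, robust quasi-likelihood fit, pair as block, Benjamini-Hochberg threshold 0.05). Pairs were matched by the sample codes in the titles. Deviations from the means of each tissue within each code style correlated by 0.136 to 0.668 within pairs. The median was -0.0369 between unmatched tumour and peritumour libraries of the same or different code style. Nothing beyond the codes says that samples are separate animals, so p-values measure the spread between these samples. Log2 CPM used a prior count of 2. On simulated data with 200 of 13084 genes changed, 80% of changes of 1 and 30% of changes of 0.5 on the log2 scale were recovered. More genes than that were called in the data, so these shares need not hold for them.

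The alternatives were no block, RLE factors, library size alone, no filter, a mean of at least 10 CPM, each pair left out, each code style alone and DESeq2 1.42.0. A GC and length correction (loess, span 0.5, 98.5% of genes with values), pairs 2, 5 and 6 left out together and chromosome offsets were also run. The correction and the offsets were chosen after seeing the data.

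The genes, gene lists and comparisons were chosen with earlier results of these data known. Among called genes with a mean of at least 10 CPM the rule named the 10 largest rises and the 10 largest falls. Of those changed the same way in all 11 pairs, it named the 5 rises and 5 falls whose smallest pair difference was largest. It also named up to 2 risen and 2 fallen members of each list, the 5 genes with the largest excess of spread over tumours, 5 genes of the most shifted chromosome and a fixed set (Myc, Afp, Gpc3, Glul, Cyp2e1, Cd274, Foxp3, Cd8a, Clec4f, Krt19, Mki67, Xist and Alb). Xist is not analysed here. Some genes and 1 promoter string that these rules cover are not reported here. Further list members are named to account for the counts and were chosen after their values were seen.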

Additional observations from a re-analysis of the deposited data

How the results depend on the processing

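Without a block for the pair 0 genes were higher and 0 lower, and the dash code style alone (3 pairs) also gave 0 and 0. Leaving out each pair in turn gave 230 to 668 higher and 358 to 668 lower genes. DESeq2 called 920 higher and 1149 lower, holding 1255 of the 1256 genes called by edgeR. The GC and length correction, in the paired fit, gave 376 higher and 417 lower, holding 48.4% of the genes called without it. DESeq2 called 1 gene for a difference between code styles. Chromosome 13 moved to -0.0572 with the correction, and the share of genes with the larger SD over tumours was 81.9% at a mean of at least 1 CPM. The cause of these changes was not tested. Of 2299 alternative values of the 105 called named genes 1797 kept direction and call, 502 kept the direction alone and 0 reversed; 74 of the 105 were called whichever pair was left out and 81 with the correction.

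Reversals came from named genes that were not called. Without pairs 2, 5 and 6 Cldn6 stood at -0.74, Gabrp at -1.35 and Krt19 at -0.95, and in the letter code style at -0.0495, -0.60 and -0.41. Gabrp stood at -0.0102 at a mean of at least 10 CPM, -0.0443 with chromosome offsets, -0.25 by DESeq2 and from -0.56 to 0.35 with a pair left out. Krt19 stood at -0.0418 with the GC correction, -0.0016 with chromosome offsets, -0.0538 by DESeq2 and from -0.37 to 0.26 with a pair left out. Without the block Tspan8 stood at 0.83, Gpc3 at 0.31 and Cd8a at 0.0011, and in the dash style at 2.02, 0.25 and 0.43, with Glul at 0.0023. With a pair left out Tspan8 ran from -0.50 to 0.22, Gpc3 from -0.37 to 0.10 and Cd8a from -0.162 to 0.0679. Tspan8 stood at 0.14 and Cd8a at 0.0096 with the GC correction, and Gpc3 at 0.0416 with chromosome offsets. Small log2 changes are limited by depth and by the spread between pairs.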

Other observations

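Of 14 tested ligands of the TGF-beta family 4 fell and none rose, with a median of -0.09. Besides Gdf2 and Gdf10 these were Bmp5 (-0.92, adjusted p = 0.0222), lower in 11 of 11 pairs, and Inhba, a subunit of activin A (-1.03, adjusted p = 0.0479). In the growth hormone axis Ghr, the growth hormone receptor, fell (-0.46, adjusted p = 0.0418), as did Prlr and Igf1. Of 16 immediate early and heat shock genes Ier2 alone rose (0.39 ± 0.10 SE, adjusted p = 0.0307), against 4.26% of all genes that rose. Ier2 stood at 0.28 (adjusted p = 0.0683) with the GC and length correction. Of the 3 tested adipocyte genes Car3 fell (-0.71 ± 0.21 SE, adjusted p = 0.0481), and stood at -0.63 (adjusted p = 0.0746) with the correction.

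Genes of granulocytes, red blood cells and their precursors differed widely between libraries and none passed the paired test. These lists include genes that mature cells also carry, such as S100a8 and the globins, so the sums do not separate mature cells from precursors. The summed level of the erythroid list was 3068 CPM in the tumour of pair 4 against 438 CPM in its peritumour sample. In pair 2 it was 533 CPM in tumour against 1609 CPM, the opposite order. The granulocyte list of pair 4 stood at 535 CPM in the tumour against 53.1 CPM, and that of pair 2 at 219.7 and 523 CPM.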
